A study of Mus musculus with 6 samples.

Results

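The transcripts described here are those of the subunits of oxidative phosphorylation, complexes I to V, in mouse bone marrow B220+ cells. B220 is the CD45 isoform carried by B lineage cells and by some plasmacytoid dendritic and natural killer cells. Members were taken by a rule on gene symbols, and the set was chosen with earlier results of these data known. The rule covered the Nduf subunit series with a number, Sdha to Sdhd, every Uqcr symbol, Cox4 to Cox8 and every Atp5 symbol. It also covered every row of the mitochondrial genome and left out 1 symbol. The rule took 100 of the 27761 rows of the expression table. Of these, 92 are subunit rows, 79 encoded in the nucleus and 13 on the mitochondrial genome. A further 2 are the mitochondrial ribosomal RNAs and 6 are pseudogenes that carry a subunit's symbol. Complex I had 42 subunit rows, complex II 4, complex III 9, complex IV 19 and complex V 18. Ndufa4 was counted with complex IV, since its protein is a subunit of cytochrome c oxidase. Cox7a2l and Atp5s were placed by symbol, although the Cox7a2l protein is best known as a supercomplex assembly factor.

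The study compared PELI2 knockout with WT mice, with 3 libraries of total RNA from B220+ cells in each group. The knockout libraries are titled PELI2-CKO, and the labels give no Cre line, deleted exon, strain, age or sex, nor how B220+ cells were isolated or how many mice each library holds. Nothing in the labels says that replicates came from separate mice, so p-values measure only the spread between these samples, which may be technical. PELI2 is an E3 ubiquitin ligase of the Pellino family, known from Toll-like and interleukin-1 receptor signalling.

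Oxidative phosphorylation takes electrons from NADH through complex I and from succinate through complex II to ubiquinone, then through complex III and cytochrome c to complex IV, where oxygen is reduced. Complexes I, III and IV pump protons across the inner mitochondrial membrane, and complex V lets them back to make ATP. Every complex except complex II combines nuclear subunits with subunits made from the mitochondrial genome. In B lineage cells, respiration is known to change as cells pass between resting and dividing stages.

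Levels are given in FPKM, fragments scaled to transcript length and library size, a scale on which genes of different length can be compared. The libraries held 16600000 to 18100000 reads, as recovered from the steps between low FPKM values. In the shallowest library, 16.6 reads made 1 FPKM for a transcript of 1 kilobase. The Peli2 transcript was no lower where the label is PELI2 knockout: it had 3.07, 2.70 and 2.47 FPKM there, against 2.03, 2.54 and 1.99 FPKM in WT libraries. The means were 2.74 ± 0.303 FPKM in PELI2 knockout and 2.19 ± 0.307 FPKM in WT libraries (SD, 3 libraries each), a difference of 0.556 FPKM (two-sided exact permutation test, p = 0.2, where the smallest possible is 0.1). A gene level does not show whether an exon is missing, so it does not check the labels. B lineage markers were present in every library, with Cd79a, a B cell receptor component, at 488 to 516 FPKM in PELI2 knockout and 583 to 724 FPKM in WT libraries.

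None of the 89 subunit genes that could be tested differed between PELI2 knockout and WT libraries past an adjusted p of 0.05, while small differences pointed mostly one way. The test was limma on log2(FPKM + 1) over the 12953 genes with at least 1 FPKM in at least 3 libraries, with Benjamini-Hochberg adjustment over all of them, and fold changes are PELI2 knockout over WT on that scale. It called 0 of 89 subunit genes, against 0.0232% of all tested genes, which is 3 genes. The smallest limma adjusted p of a subunit gene was 0.147, for Atp5g1. At an unadjusted p under 0.05 there were 9 subunit genes, or 10.1%, against 18.1% of all tested genes. All 9 were higher in PELI2 knockout libraries, where the share of all tested genes called in that direction was 9.2%.

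The mean log2 level was higher in PELI2 knockout libraries for 74 of the 89 subunit genes and lower for 15, against 46.4% higher among all tested genes. The median log2 fold change was 0.063, over a range of -0.57 to 0.46, against -0.014 for all tested genes. The sign depended on scaling, while the distance from all tested genes moved less: with every library brought to a common FPKM total, 41 of 89 were higher, against 31.2% of all tested genes, the subunit median was -0.0079 and that of all tested genes -0.076. The subunit median was then 0.068 above that of all tested genes, against 0.076 before rescaling. The count was 59 of 89, against 36.3%, with a common total without mitochondrial and immunoglobulin rows, 64 of 89, against 43.8%, with quantile normalization, and 79 of 89, against 47.9%, with median-of-ratios scaling. The count also depended on a pair of libraries. Without PELI2 knockout replicate 3 and WT replicate 2 the count was 48 of 89, against 46% of all tested genes, and the median was 0.016. That setting was chosen after the values were seen. In 12 subunit genes the groups did not overlap, all higher in PELI2 knockout, which is 13.5% against 11.5% of all tested genes; none was lower without overlap, against 14.3%. In bulk RNA, more cells of a type and more RNA per cell cannot be told apart.

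**Figure D1:**
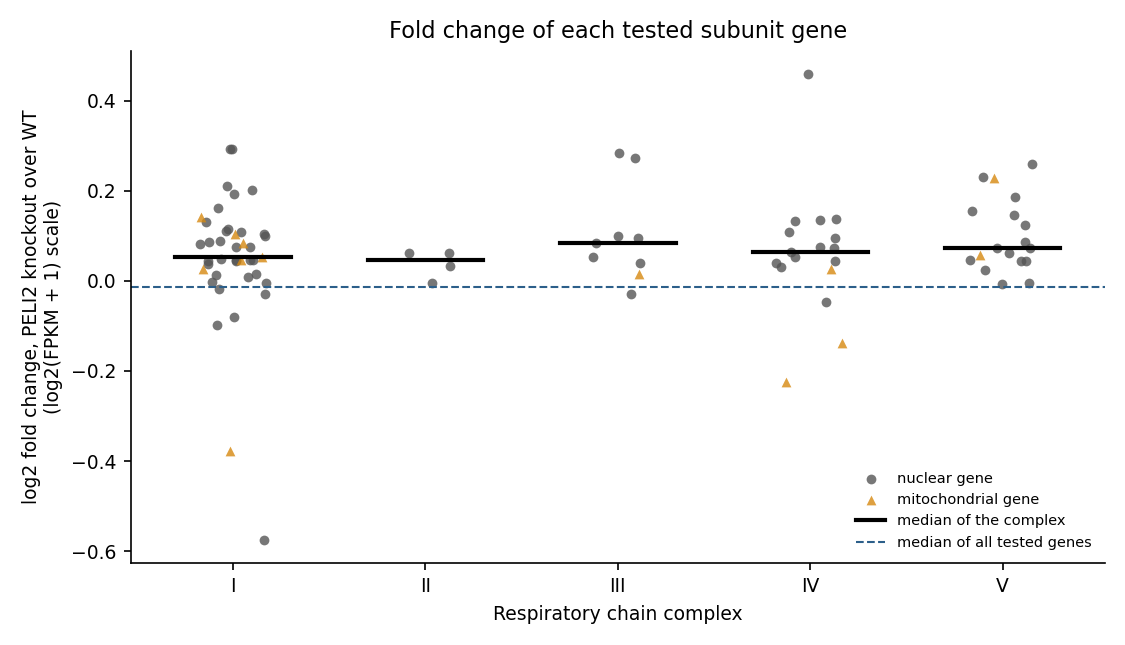
Log2 fold change (PELI2 knockout over WT, on log2 of FPKM + 1) of each tested subunit gene, 1 point per gene, by complex; circles are nuclear and triangles mitochondrial genes, black lines the medians of the complexes and the dashed line that of all tested genes. Most points lie between 0 and 0.3, Cox6b2 is highest at 0.46 and Ndufa12 is lowest at -0.57; none passed an adjusted p of 0.05, and with a common FPKM total the median of all subunit genes is -0.0079 and that of all tested genes -0.076.

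Most marker lists of the cells that bone marrow holds stood at different levels in the groups, while the plasma cell sums overlapped. The 10 B lineage markers summed to 1463 to 1498 FPKM in PELI2 knockout and 1691 to 2097 FPKM in WT libraries, and 9 of 10 had a lower mean in PELI2 knockout. All 12 neutrophil and granulocyte markers had a higher mean in PELI2 knockout, with sums of 11860 to 14040 FPKM there and 7561 to 10490 FPKM in WT libraries. Mpo, a granule enzyme, had 246, 265 and 226 FPKM there against 70.5, 110 and 107 FPKM in WT libraries. All 10 monocyte and all 10 erythroid markers were higher in mean, with erythroid sums of 7449 to 9165 FPKM in PELI2 knockout and 4996 to 7414 FPKM in WT libraries. Monocyte sums were 1019 to 1260 FPKM in PELI2 knockout and 683 to 956 FPKM in WT libraries, with no overlap. Plasmacytoid dendritic sums were 1032 to 1193 FPKM in PELI2 knockout and 985.5 to 1027 FPKM in WT libraries, with 7 of 8 genes higher. T and NK markers summed to 95.1 to 110 FPKM in PELI2 knockout and 73.4 to 90.2 FPKM in WT libraries, with 5 of 8 tested genes higher. Their median log2 fold change was 0.048. Plasma cell markers summed to 656 to 843 FPKM in PELI2 knockout and 651 to 714 FPKM in WT libraries, with 3 of 6 higher. No marker was listed at 0, and limma called none of the markers at an adjusted p under 0.05. The part of these markers in the subunit values was not tested.

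Each complex had more genes higher than lower in mean on the FPKM scale. In complex I, 33 of 41 tested genes had a higher mean in PELI2 knockout libraries, and their median log2 fold change was 0.053. The count was 3 of 4 in complex II with a median of 0.047, 8 of 9 in complex III with 0.084, 14 of 17 in complex IV with 0.065 and 16 of 18 in complex V with 0.073. With a common FPKM total the medians ran from -0.026 in complex II to 0.012 in complex III, where that of all tested genes was -0.076, so that every complex lay 0.050 to 0.089 above it. This did not hold for complex I without PELI2 knockout replicate 3 and WT replicate 2, a setting chosen after the values were seen. Its median was then -0.019, against -0.016 for all tested genes. Summed over its nuclear members, complex I reached 1022.7 ± 69.6 FPKM in PELI2 knockout and 978 ± 55.3 FPKM in WT libraries (SD, n = 3 each). Complex II summed to 165 ± 3.28 FPKM in PELI2 knockout and 161 ± 6.02 FPKM in WT libraries. Complex III summed to 426 ± 16.7 FPKM in PELI2 knockout and 398 ± 20.1 FPKM in WT libraries, a ratio of 1.07. Complex IV summed to 1235 ± 53.6 FPKM in PELI2 knockout and 1179 ± 50.8 FPKM in WT libraries, and complex V to 968 ± 31.6 FPKM in PELI2 knockout and 922 ± 42.6 FPKM in WT libraries. The ratios of the means were 1.05 for complexes I, IV and V and 1.03 for complex II. In every complex the lowest PELI2 knockout sum was below the highest WT sum, so the groups overlapped. The symbol rule does not take Cyc1 of complex III or Ndufab1 of complex I, so the counts and sums leave them out. Cyc1 averaged 53.6 ± 1.92 FPKM in PELI2 knockout and 51.8 ± 4.56 FPKM in WT libraries. Ndufab1 averaged 2.95 ± 0.295 FPKM in PELI2 knockout and 2.98 ± 0.213 FPKM in WT libraries.

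Levels differed far more between subunits than between groups. The median nuclear subunit gene stood at 33.5 FPKM over all 6 libraries. The most abundant nuclear transcripts were those of Cox8a at 267 FPKM, Cox6a1 at 249 FPKM and Atp5a1, the alpha subunit of the ATP synthase, at 221 FPKM. Every nuclear complex I gene was lower than these, with Ndufb11 highest at 87.6 FPKM. Complex II was led by Sdhd at 61.2 FPKM and complex III, among nuclear genes, by Uqcrfs1 at 75.4 FPKM. The lowest tested nuclear genes were Cox7a1 at 1.45 FPKM, Atp5s at 2.71 FPKM, and in complex I Ndufb5 at 7.57 FPKM. Of the 100 members, 93 passed the filter on low values. Those not tested were Cox4i2, Cox8b, Ndufb2 and 4 pseudogenes. Ndufb2 was just under the filter, with 0.961, 0.948 and 1.15 FPKM in PELI2 knockout and 0.872, 0.876 and 0.989 FPKM in WT libraries.

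**Figure D2:**
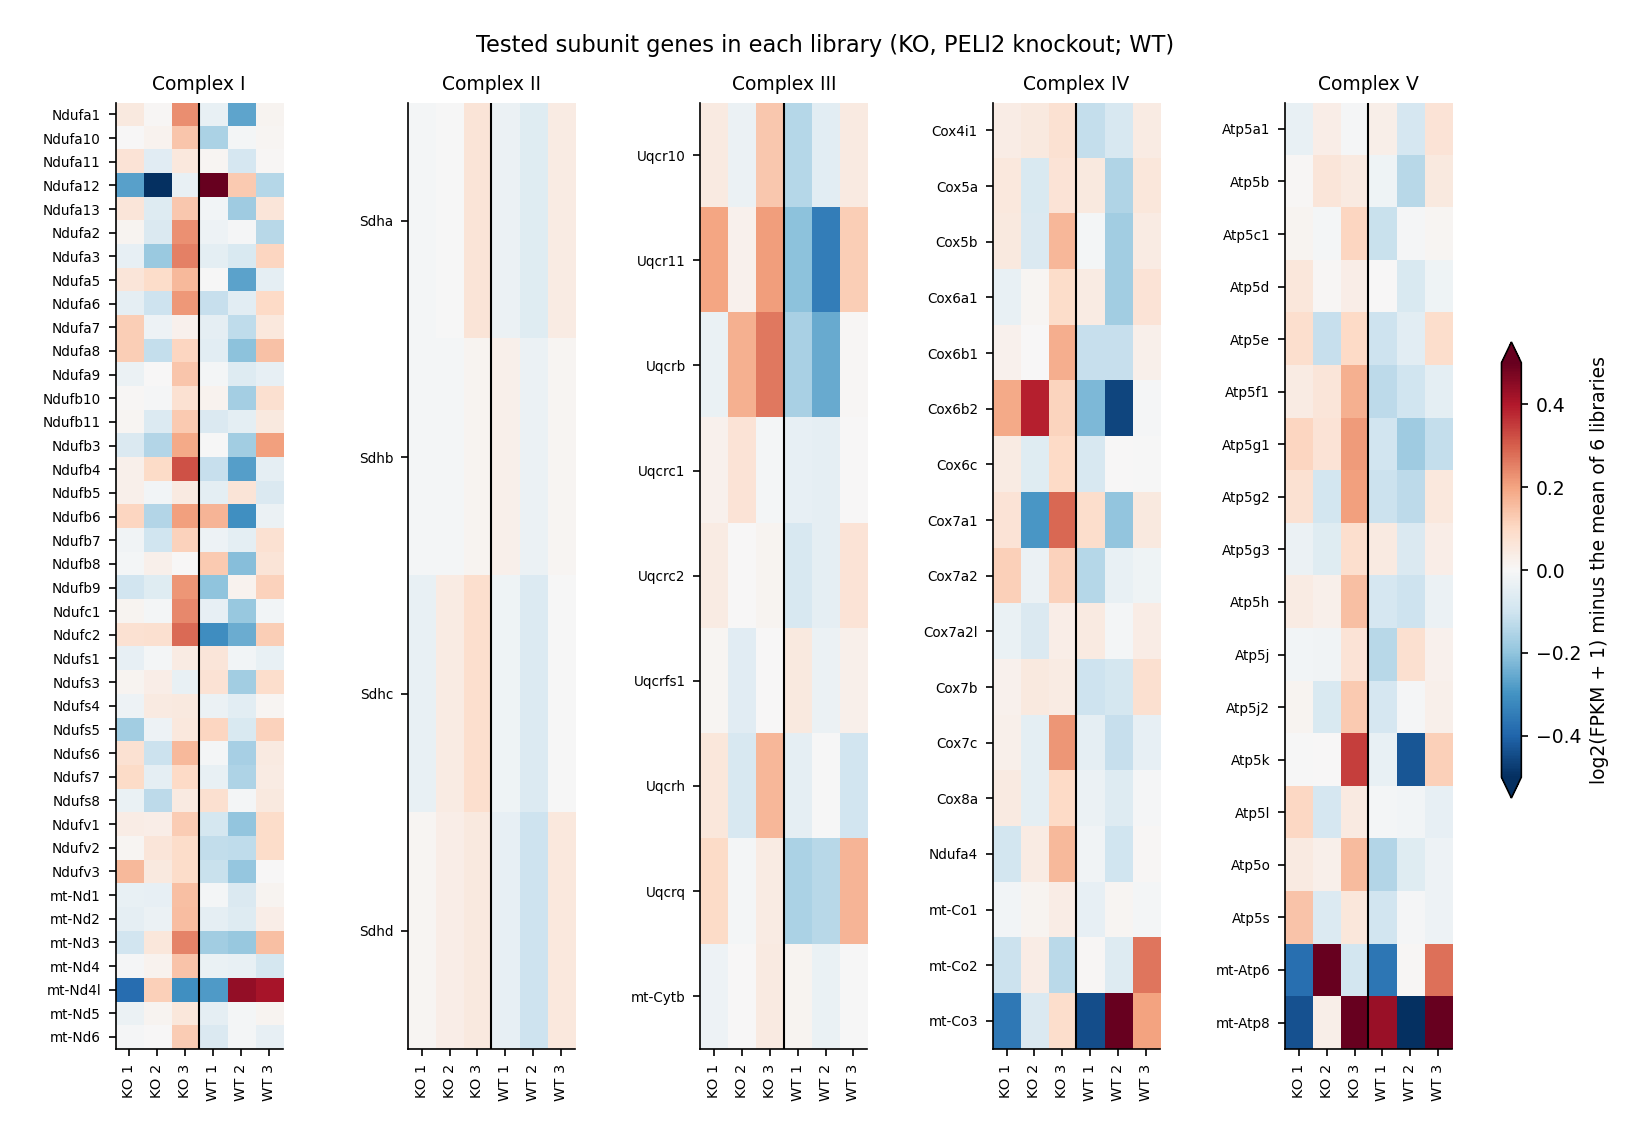
Deviation of the tested subunit genes shown from their own means over the 6 libraries (log2 of FPKM + 1, colours saturating at 0.5), by complex, with PELI2 knockout libraries left of the black line and WT libraries right of it. PELI2 knockout replicate 3 holds the highest value for 46 of the 76 tested nuclear genes and WT replicate 2 the lowest for 44.

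Within the groups, 1 library on each side stood out for the nuclear genes. PELI2 knockout replicate 3 held the highest value in 46 of the 76 tested nuclear subunit genes, or 60.5%, against 17.2% of all tested genes. It held the lowest value in 0 of them. WT replicate 2 held the lowest value in 44 of 76, or 57.9%, against 13.1% of all tested genes. The median deviation from the gene means was 0.022, -0.011 and 0.104 on the log2 scale in PELI2 knockout replicates 1, 2 and 3, against -0.040, -0.085 and 0.035 in WT replicates 1, 2 and 3. WT replicate 3 was thus above PELI2 knockout replicates 1 and 2 in this measure. The nuclear genes also had short annotated transcripts. The length of a gene was taken as the median over all its annotated transcripts, which can be shorter than the transcript expressed. By this measure the median of the nuclear genes was 608 bases against 1150 for all tested genes, and 68 of 76 were under 1000 bases. Over all tested genes, the median log2 fold change was 0.0067 under 1000 bases and -0.027 above, while the nuclear subunit genes had 0.074 under 1000 bases and 0.067 above, the last from 8 genes. The part of transcript length in the shift was not tested beyond these values.

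Promoters of the nuclear subunit genes are known to bind nuclear respiratory factor 1 (NRF1), ETS factors such as GABP, YY1, Sp1 and the estrogen-related receptor ERRA. RefSeq windows of GRCm38.p6, 250 bases before to 50 bases after a transcription start, matched 67 of the 79 nuclear genes with 72 windows. Both strands were searched for fixed letters. The NRF1 letters, GCGCA and GCGC with 1 base of any kind between them, were in 18 windows, 25% of them, against 4.60% of 32851 windows of all genes. The ETS letters CCGGAAG were in 22.2% against 8.86%, the YY1 letters AAGATGGCG in 9.72% against 1.4%, and the Sp1 letters GGGCGG in 38.9% against 35.7%. The ERRA letters TCAAGGTCA were in 2 windows, 2.78% against 0.423%. Member windows had a median GC content of 57.5% against 52.7%. Among 7115 windows of all genes with 54.25 to 62.08% GC, the shares were 6.58% for NRF1, 13.8% for ETS, 2.25% for YY1, 48.2% for Sp1 and 0.295% for ERRA. These are matches of letters, given as a description.

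The windows below are, among the matched genes, those with the smallest p in complexes I, III, IV and V, and Sdhd from complex II. They run 5′ to 3′ on the gene's strand with matches in capitals. Ndufb4 is shown because it holds 3 NRF1 matches and was added after its window was seen. Only the Ndufb4 and Sdhd windows hold NRF1 letters, Ndufb4 also holds 1 Sp1 match, on the other strand, Sdhd also holds ETS, Sp1 and ERRA letters, Uqcr11 an ETS match, Ndufv3 and Cox6b2 Sp1 letters, and Atp5g1 none of the 5.
Ndufv3 (chr17:31519865-31520164, plus strand): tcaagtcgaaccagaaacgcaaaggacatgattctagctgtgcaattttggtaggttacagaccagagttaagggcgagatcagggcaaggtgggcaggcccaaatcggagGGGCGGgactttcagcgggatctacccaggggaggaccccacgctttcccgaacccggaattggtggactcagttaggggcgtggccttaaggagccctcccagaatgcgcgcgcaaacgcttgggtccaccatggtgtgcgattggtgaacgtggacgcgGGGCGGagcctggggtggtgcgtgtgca
Ndufb4 (chr16:37654319-37654618, minus strand): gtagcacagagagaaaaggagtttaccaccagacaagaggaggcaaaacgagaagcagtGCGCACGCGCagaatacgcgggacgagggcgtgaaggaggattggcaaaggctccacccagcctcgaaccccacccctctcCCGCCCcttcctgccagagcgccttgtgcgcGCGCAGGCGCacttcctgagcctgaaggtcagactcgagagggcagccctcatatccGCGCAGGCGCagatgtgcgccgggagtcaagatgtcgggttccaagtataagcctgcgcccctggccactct
Sdhd (chr9:50603800-50604099, minus strand): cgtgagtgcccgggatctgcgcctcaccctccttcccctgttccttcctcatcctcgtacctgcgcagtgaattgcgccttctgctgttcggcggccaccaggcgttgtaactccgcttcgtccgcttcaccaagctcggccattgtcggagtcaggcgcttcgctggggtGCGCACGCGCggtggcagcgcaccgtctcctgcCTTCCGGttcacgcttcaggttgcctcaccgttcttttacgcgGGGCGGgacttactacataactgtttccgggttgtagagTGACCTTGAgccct
Uqcr11 (chr10:80406772-80407071, minus strand): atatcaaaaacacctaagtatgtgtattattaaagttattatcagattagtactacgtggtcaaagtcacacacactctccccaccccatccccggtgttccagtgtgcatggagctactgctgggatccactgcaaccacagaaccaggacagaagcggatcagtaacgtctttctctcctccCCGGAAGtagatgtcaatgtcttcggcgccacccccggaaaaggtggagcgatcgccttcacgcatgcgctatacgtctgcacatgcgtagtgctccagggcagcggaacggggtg
Cox6b2 (chr7:4753045-4753344, minus strand): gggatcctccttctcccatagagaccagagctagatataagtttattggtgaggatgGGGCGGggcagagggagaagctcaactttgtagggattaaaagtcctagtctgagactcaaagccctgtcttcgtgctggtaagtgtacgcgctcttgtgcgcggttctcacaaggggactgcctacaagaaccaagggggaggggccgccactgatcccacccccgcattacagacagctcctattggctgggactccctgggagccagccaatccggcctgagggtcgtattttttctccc
Atp5g1 (chr11:96075582-96075881, minus strand): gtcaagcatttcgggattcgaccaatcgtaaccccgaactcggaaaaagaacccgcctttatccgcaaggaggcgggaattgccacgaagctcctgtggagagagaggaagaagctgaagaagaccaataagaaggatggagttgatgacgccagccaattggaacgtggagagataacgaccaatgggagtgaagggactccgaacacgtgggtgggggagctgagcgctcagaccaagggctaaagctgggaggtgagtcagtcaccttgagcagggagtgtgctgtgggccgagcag

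Complex I oxidises NADH in its peripheral arm. In the NADH-binding part, Ndufv3, a small accessory subunit of the flavoprotein, had 16.3, 15.0 and 15.5 FPKM in PELI2 knockout and 13.3, 12.6 and 14.5 FPKM in WT libraries. The groups did not overlap, and the log2 fold change was 0.20 ± 0.065 (SE; limma adjusted p = 0.213). Ndufv1, which binds the flavin, averaged 31.4 ± 1.19 FPKM in PELI2 knockout and 28.7 ± 3.07 FPKM in WT libraries, and Ndufs1, which holds iron-sulfur clusters, 9.46 ± 0.298 FPKM in PELI2 knockout and 9.50 ± 0.378 FPKM in WT libraries. Of these 3, only Ndufv3 had an unadjusted p under 0.05.

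In the part of the arm that passes electrons to ubiquinone, Ndufs3 and Ndufs8 differed by less than the larger of their SDs. Ndufs3 averaged 19.9 ± 0.510 FPKM in PELI2 knockout and 19.8 ± 2.04 FPKM in WT libraries. Ndufs8 averaged 62.9 ± 3.91 FPKM in PELI2 knockout and 66.5 ± 2.11 FPKM in WT libraries. Ndufa5, an accessory subunit of the same arm, had 17.2, 17.6 and 18.5 FPKM in PELI2 knockout and 16.4, 13.5 and 15.9 FPKM in WT libraries. Its groups did not overlap, with a log2 fold change of 0.21 ± 0.079 (SE; limma adjusted p = 0.248), and the fold change was 0.13 without WT replicate 2.

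In the membrane arm, Ndufb4 had 16.5, 17.3 and 20.3 FPKM in PELI2 knockout and 14.8, 13.2 and 15.6 FPKM in WT libraries. Every PELI2 knockout library was above every WT library, and the log2 fold change was 0.29 ± 0.095 (SE; limma adjusted p = 0.214). Ndufc2 had 28.4, 28.5 and 33.0 FPKM in PELI2 knockout and 21.5, 22.5 and 29.4 FPKM in WT libraries. WT replicate 3 lay inside the PELI2 knockout range, and the log2 fold change of 0.29 ± 0.124 (SE) had a limma adjusted p of 0.279. Its partner Ndufc1 had 11.5, 11.3 and 13.7 FPKM in PELI2 knockout and 11.1, 9.90 and 11.3 FPKM in WT libraries, with the lowest PELI2 knockout value just above the highest WT value. In complex I, 8 tested genes had a lower mean in PELI2 knockout, among them Ndufa12, mt-Nd4l, Ndufs8 and Ndufs5. None of the 8 had an unadjusted p under 0.05 or groups without overlap. Ndufs5 averaged 32.3 ± 2.62 FPKM in PELI2 knockout and 34.6 ± 2.60 FPKM in WT libraries.

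Complex II, succinate dehydrogenase, also works in the tricarboxylic acid cycle and has no mitochondrially encoded subunit. None of its 4 genes had an unadjusted p under 0.05. Sdha, the flavoprotein, had 50.0, 50.3 and 52.8 FPKM in PELI2 knockout and 49.4, 48.4 and 52.0 FPKM in WT libraries. Sdhb, the iron-sulfur subunit, had 34.9, 34.9 and 35.5 FPKM in PELI2 knockout and 35.7, 34.4 and 35.4 FPKM in WT libraries. For the membrane anchors, Sdhc averaged 16.5 ± 0.739 FPKM in PELI2 knockout and 15.8 ± 0.40 FPKM in WT libraries, and Sdhd 62.5 ± 0.867 FPKM in PELI2 knockout and 59.9 ± 3.35 FPKM in WT libraries. All 4 overlapped between groups, with log2 fold changes of -0.0046 for Sdhb to 0.062 for Sdhc and Sdhd.

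In complex III, the small subunits had the larger differences. Uqcrb, a ubiquinone-site subunit, had 25.7, 29.9 and 31.8 FPKM in PELI2 knockout and 23.4, 22 and 26.4 FPKM in WT libraries. The groups overlapped in 1 library on each side, and the log2 fold change was 0.27 ± 0.098 (SE; limma adjusted p = 0.234). Uqcr11 had 57.4, 50.8 and 57.9 FPKM in PELI2 knockout and 43.2, 39.1 and 54.5 FPKM in WT libraries. Here WT replicate 3 exceeded PELI2 knockout replicate 2, and the log2 fold change was 0.28 ± 0.124 (SE; limma adjusted p = 0.29), with 0.18 without WT replicate 2. The catalytic Rieske protein gene Uqcrfs1 averaged 74.6 ± 1.97 FPKM in PELI2 knockout and 76.1 ± 2.11 FPKM in WT libraries. The core genes Uqcrc1 and Uqcrc2 averaged 40.0 ± 1.15 and 39.4 ± 0.606 FPKM in PELI2 knockout, against 38.5 ± 0.730 and 38.4 ± 2.18 FPKM in WT libraries. Uqcrfs1 was the only tested complex III gene with a lower mean in PELI2 knockout libraries.

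Complex IV has alternative genes for several subunits, and the commonly expressed form made up most of each pair. Cox4i2, the hypoxia and lung form, was 0.241% of Cox4i1 plus Cox4i2 in PELI2 knockout and 0.382% in WT libraries. Cox7a1, the heart and muscle form, was 2.55% of Cox7a1 plus Cox7a2 in PELI2 knockout and 2.67% in WT libraries. Cox8b was 0.115 ± 0.00993% of Cox8a plus Cox8b in PELI2 knockout and 0.291 ± 0.201% in WT libraries (SD). It rested on 2, 2 and 2 reads in PELI2 knockout and 1, 6 and 7 reads in WT libraries. The shares of Cox4i2, Cox7a1 and Cox8b all overlapped between groups. Cox6b2, known as the testis form of the subunit that bridges the enzyme's dimer, had 10.5, 12.2 and 9.89 FPKM in PELI2 knockout and 7.64, 6.35 and 9.05 FPKM in WT libraries. The groups did not overlap, and its log2 fold change of 0.46 ± 0.13 (SE; limma adjusted p = 0.179) was the highest of the tested subunit genes. Cox6b2 was 9.77 ± 1.47% of Cox6b1 plus Cox6b2 in PELI2 knockout and 7.69 ± 0.917% in WT libraries (SD, n = 3 each). By library the share was 9.72, 11.3 and 8.32% in PELI2 knockout and 7.92, 6.68 and 8.47% in WT libraries, so the shares overlapped.

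None of the other complex IV genes had an unadjusted p under 0.05. Cox4i1, a regulatory subunit, averaged 147 ± 1.94 FPKM in PELI2 knockout and 136 ± 8.14 FPKM in WT libraries. Cox7a2l averaged 155 ± 5.83 FPKM in PELI2 knockout and 160 ± 3.36 FPKM in WT libraries. It was the only tested nuclear gene of the complex with a lower mean in PELI2 knockout libraries. Ndufa4 averaged 45.1 ± 4.03 FPKM in PELI2 knockout and 42.7 ± 1.64 FPKM in WT libraries.

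Complex V held 4 of the 9 genes with an unadjusted p under 0.05, which is 22.2% of its 18 tested genes, against 18.1% of all tested genes in either direction and 9.2% higher in PELI2 knockout. The ring that turns with proton flow is built from the c subunit, whose identical mature protein comes from Atp5g1, Atp5g2 and Atp5g3. Atp5g1 (chr11:96068852-96075670, minus strand) had 8.57, 8.32 and 9.30 FPKM in PELI2 knockout and 7.32, 6.86 and 7.19 FPKM in WT libraries. All PELI2 knockout libraries were above all WT libraries, and the log2 fold change was 0.26 ± 0.058 (SE; limma adjusted p = 0.147). By the FPKM of the 3 gene rows it supplied the smallest share of the c subunit transcripts. That share was 6.17, 6.40 and 6.15% in PELI2 knockout and 5.50, 5.43 and 5.15% in WT libraries. Atp5g2 supplied 46.95 ± 1.46% in PELI2 knockout and 45.2 ± 1.51% in WT libraries, and Atp5g3 46.8 ± 1.32% in PELI2 knockout and 49.4 ± 1.33% in WT libraries. The shares of Atp5g1 did not overlap between groups. They leave out Gm10039, a close copy of Atp5g1 described below, and the sums of gene and copy did overlap.

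The others of the 4 encode parts of the stalk that holds the catalytic head still. Atp5f1, the b subunit, had 37.1, 37.5 and 40.9 FPKM in PELI2 knockout and 32.8, 33.5 and 34.8 FPKM in WT libraries, with a log2 fold change of 0.19 ± 0.054 (SE; limma adjusted p = 0.188). Atp5h, the d subunit, had 61.9, 61.1 and 66.9 FPKM in PELI2 knockout and 56.6, 55.8 and 58.9 FPKM in WT libraries, a log2 fold change of 0.15 ± 0.053 (SE; limma adjusted p = 0.238). Atp5o, the oligomycin sensitivity protein, had 39.4, 38.8 and 42.6 FPKM in PELI2 knockout and 34.3, 36.5 and 37.4 FPKM in WT libraries, a log2 fold change of 0.16 ± 0.058 (SE; limma adjusted p = 0.243). None of the 3 overlapped between the groups. Atp5h has a close copy, Gm10250, with 2 mismatches over 416 bases. Summed, gene and copy had 81.3, 89.8 and 96.1 FPKM in PELI2 knockout and 79.6, 91.6 and 84.1 FPKM in WT libraries, which overlapped. Atp5j, coupling factor 6 of the same stalk, averaged 21.5 ± 0.75 FPKM in PELI2 knockout and 21.2 ± 1.69 FPKM in WT libraries, which overlapped, with a log2 fold change of 0.024. With a common FPKM total the log2 fold changes were 0.11 for Atp5f1, 0.072 for Atp5h and 0.083 for Atp5o. In the catalytic head, Atp5a1 averaged 221 ± 5.37 FPKM in PELI2 knockout and 222 ± 12.1 FPKM in WT libraries, and Atp5b 175 ± 3.56 FPKM in PELI2 knockout and 166 ± 10.8 FPKM in WT libraries. Atpif1, the inhibitor that binds the head and which the symbol rule does not take, had 33.8, 38.1 and 35.9 FPKM in PELI2 knockout and 25.1, 30.9 and 29.1 FPKM in WT libraries (log2 fold change 0.34 ± 0.085 SE, limma adjusted p = 0.165). Its groups did not overlap.

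**Figure D3:**
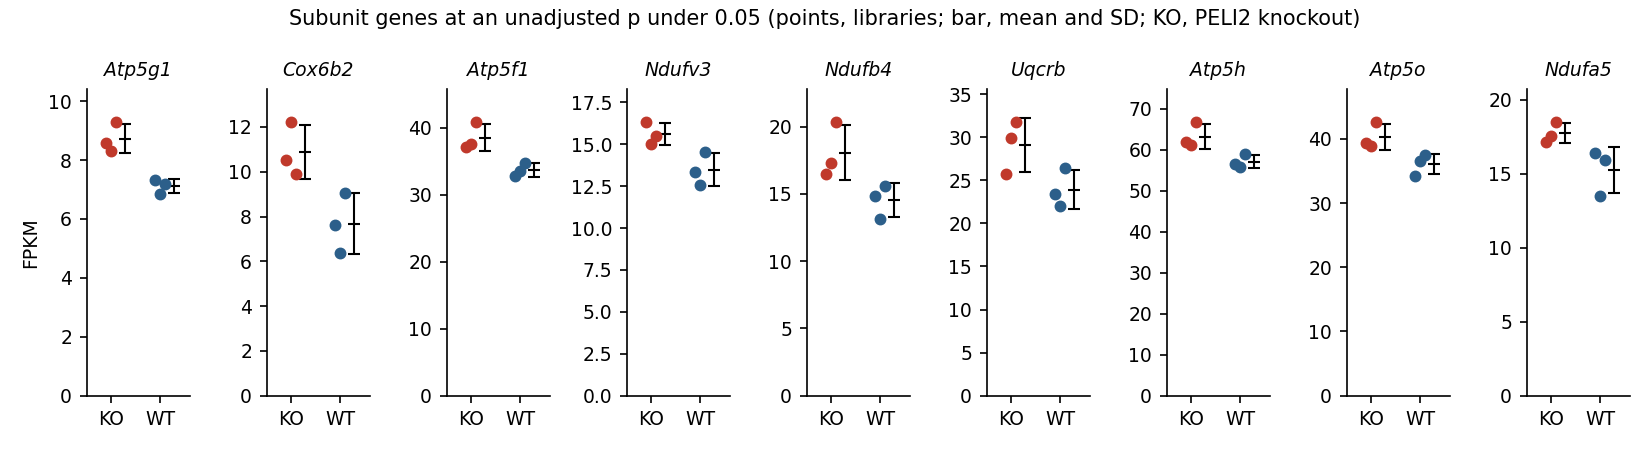
FPKM of the 9 subunit genes at an unadjusted p under 0.05, by library, with PELI2 knockout (KO) left of WT in every panel; points are libraries and bars the mean and SD of 3. In 8 of the panels all PELI2 knockout points lie above all WT points, and in that of Uqcrb they overlap, with 25.7 FPKM in PELI2 knockout replicate 1 and 26.4 FPKM in WT replicate 3.

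The mitochondrial genes spanned a wide range of levels. mt-Co1, the catalytic subunit of complex IV, had 4471, 4551 and 4631 FPKM in PELI2 knockout and 4385, 4542 and 4474 FPKM in WT libraries. mt-Cytb, cytochrome b of complex III, averaged 1856 ± 45.0 FPKM in PELI2 knockout and 1837 ± 31.8 FPKM in WT libraries, and mt-Nd1, a membrane core subunit of complex I, 1719 ± 133 FPKM in PELI2 knockout and 1661 ± 51.5 FPKM in WT libraries. The groups overlapped in all 3. The complex I genes mt-Nd4 and mt-Nd6 did not overlap: mt-Nd4 had 600, 609 and 664 FPKM in PELI2 knockout and 589, 587 and 565 FPKM in WT libraries. mt-Nd6, the gene on the other strand from the rest, had 659, 662 and 721 FPKM in PELI2 knockout and 628, 655 and 642 FPKM in WT libraries. Their log2 fold changes were 0.10 and 0.084, with limma adjusted p of 0.477 and 0.568. Over the 13 subunit genes 10 had a higher mean FPKM in PELI2 knockout, with 0 at an unadjusted p under 0.05, whereas mitochondrial rows took 3.34, 3.41 and 3.52% of the FPKM total in PELI2 knockout and 3.56, 3.48 and 3.48% in WT libraries, a lower mean share in PELI2 knockout. The complex I genes mt-Nd2 and mt-Nd5 averaged 730 ± 57.1 and 714 ± 20.8 FPKM in PELI2 knockout, against 703 ± 25.2 and 701 ± 14.2 FPKM in WT libraries. Both ribosomal RNAs were higher in mean: mt-Rnr1, of the small subunit, had 187, 181 and 199 FPKM in PELI2 knockout and 163, 179 and 177 FPKM in WT libraries, without overlap. mt-Rnr2, of the large subunit, averaged 238 ± 10.9 FPKM in PELI2 knockout and 223 ± 25.7 FPKM in WT libraries. The protocol purified RNA on oligo(dT), so ribosomal RNA values do not measure total ribosomal RNA.

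**Figure D4:**
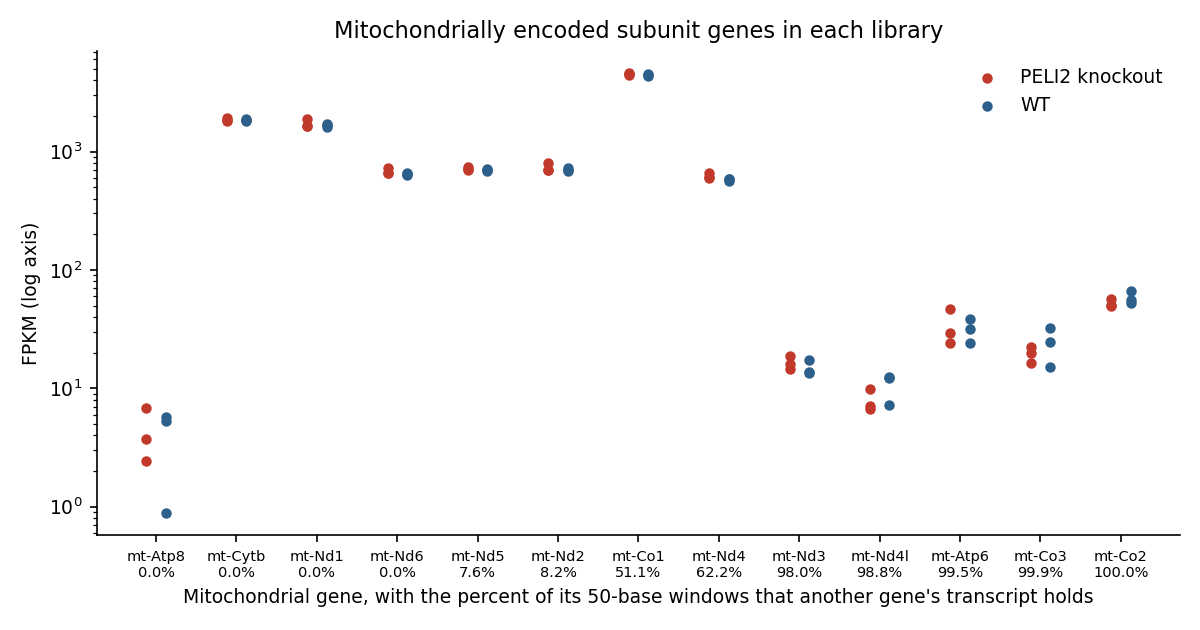
FPKM of the mitochondrial genes in each library on a log axis, PELI2 knockout left of WT, each gene labelled with the share of its 50-base windows that also occur in another annotated transcript. The genes with a share of 98% or more lie between 6.69 and 66.4 FPKM, and mt-Co1, mt-Cytb and mt-Nd1 above 1600 FPKM.

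Low values in the mitochondrial list went with shared sequence. Of all 50-base windows, the length of these reads, 100% of those of mt-Co2 also occurred in another annotated transcript, as did 99.9% for mt-Co3, 99.5% for mt-Atp6, 98.8% for mt-Nd4l and 98% for mt-Nd3. These 5 genes had 6.69 to 66.4 FPKM. mt-Nd4 had 62.2% and mt-Co1 51.1%, mt-Nd2 8.19% and mt-Nd5 7.61%, and mt-Cytb, mt-Nd1, mt-Nd6 and mt-Atp8 0%. The copies compared here are unprocessed pseudogenes on the minus strand of chromosome 1, between bases 24611535 and 24616197 of GRCm38. They are Gm28439 (mt-Nd4), Gm10222 (mt-Nd4l), Gm28438 (mt-Nd3), Gm28437 (mt-Co3), Gm10925 (mt-Atp6), Gm28661 (mt-Co2) and Gm29216 (part of mt-Co1). Genes outside this list also shared windows. Gm13340 held 27.5% of those of mt-Co1, Gm13341 35.3% of those of mt-Co2, Gm13339 8.19% of those of mt-Nd2 and Gm4076 4.11% of those of mt-Nd5. Gm28661 matches mt-Co2 with 0 mismatches over 681 bases and was listed at 61.5, 54.8 and 62.8 FPKM in PELI2 knockout and 52.5, 43.6 and 48.3 FPKM in WT libraries. mt-Co2 itself had 51.0, 56.4 and 50.0 FPKM in PELI2 knockout and 55.3, 52.6 and 66.4 FPKM in WT libraries. mt-Co3, a core subunit of complex IV, had 16.3, 20 and 22.5 FPKM in PELI2 knockout and 15.3, 32.1 and 24.4 FPKM in WT libraries. Both genes overlapped between groups, with log2 fold changes of -0.14 for mt-Co2 and -0.23 for mt-Co3. Levels of these 5 genes, and any split with their copies, are therefore uncertain. Summed, mt-Co2 and Gm28661 had 113, 111 and 113 FPKM in PELI2 knockout and 108, 96.2 and 115 FPKM in WT libraries. The sums of mt-Co3 and Gm28437 were 29.4, 34.5 and 35.3 FPKM in PELI2 knockout and 28.3, 50.3 and 40.3 FPKM in WT libraries. Both sums were far below mt-Co1 in every library. The cause of the low values was not tested. mt-Atp8 was low without windows shared with another annotated transcript. Its FPKM corresponded to 9, 13 and 25 reads in PELI2 knockout and 19, 3 and 20 reads in WT libraries, too few to show a difference at this depth. The gene starts between mt-Co2 and mt-Atp6, whose copies Gm28661 and Gm10925 are neighbours on chromosome 1. Only annotated transcripts were searched, so a copy of mt-Atp8 between these copies would not be counted. The level of mt-Atp8 is therefore uncertain too.

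How close the copies are can be seen at the start of mt-Nd3 and Gm28438, bases 1 to 33, where the only mismatch of their 345 aligned bases falls at base 3, in capitals.
mt-Nd3: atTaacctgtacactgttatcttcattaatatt
Gm28438: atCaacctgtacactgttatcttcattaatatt

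The lowest fold change of the tested subunit genes was that of Ndufa12, an accessory subunit of complex I, and it too has a close copy. Ndufa12 (chr10:94198955-94221443) had 6.87, 5.50 and 8.26 FPKM in PELI2 knockout and 16.4, 9.42 and 7.61 FPKM in WT libraries. WT replicate 1 stood above the rest, the groups overlapped, and the log2 fold change was -0.57 ± 0.27 (SE; limma adjusted p = 0.315), with -0.28 without WT replicate 1. The processed pseudogene Gm15920 (chr5:130188395-130188796) matches 402 bases of it with 2 mismatches, and 17.7% of the gene's windows were shared. Gm15920 was listed at 29.2, 31.5 and 32.2 FPKM in PELI2 knockout and 12.6, 24.5 and 34.0 FPKM in WT libraries, lowest in the library where Ndufa12 was highest. Summed, gene and copy had 36.1, 37.0 and 40.5 FPKM in PELI2 knockout and 29.0, 34.0 and 41.6 FPKM in WT libraries, which overlapped. The pairs of gene and copy were chosen after values were seen, and a sum of FPKM mixes lengths. The mismatches, at bases 225 and 504 of the Ndufa12 transcript, are in capitals below within bases 195 to 255 and 474 to 528.
Ndufa12: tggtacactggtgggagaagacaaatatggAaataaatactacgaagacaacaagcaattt
Gm15920: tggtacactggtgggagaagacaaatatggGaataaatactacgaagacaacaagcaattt
Ndufa12: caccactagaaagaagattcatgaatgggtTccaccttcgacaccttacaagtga
Gm15920: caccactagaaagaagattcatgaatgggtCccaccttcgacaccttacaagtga

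**Figure D5:**
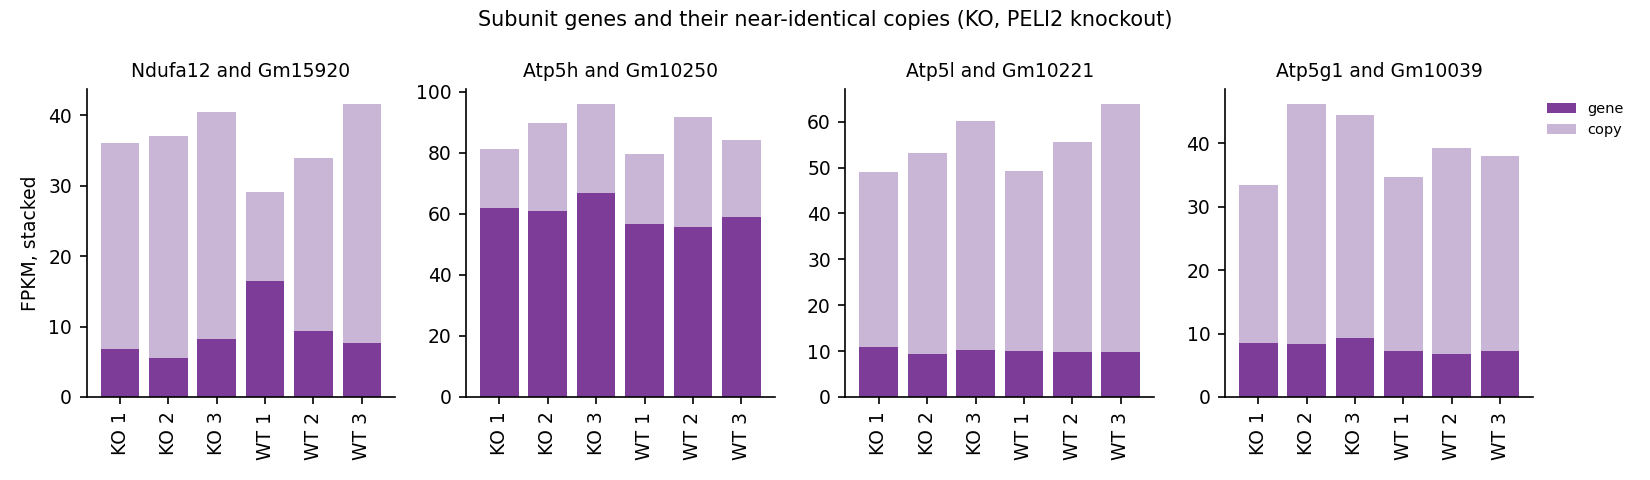
Stacked bars of the FPKM of subunit genes (dark) and of their close annotated copies (light) in each library, PELI2 knockout left of WT. For Ndufa12 and Gm15920, WT replicate 1 has 16.4 and 12.6 FPKM, while PELI2 knockout replicate 2 has 5.50 and 31.5 FPKM.

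Among the other genes named above, Atp5g1 matches Gm10039 with 1 mismatch over 411 bases. Gm10039 was listed at 24.8, 38.0 and 35.2 FPKM in PELI2 knockout and 27.3, 32.5 and 30.9 FPKM in WT libraries, above Atp5g1 in every library and overlapping between groups. Summed, Atp5g1 and Gm10039 had 33.4, 46.3 and 44.5 FPKM in PELI2 knockout and 34.6, 39.3 and 38.1 FPKM in WT libraries, which overlapped. Uqcrb matches Gm2962, and the sums were 40.2, 48.6 and 48.3 FPKM in PELI2 knockout and 47.9, 39.5 and 40.7 FPKM in WT libraries. Atp5l matches Gm10221 with 0 mismatches and had 10.8, 9.39 and 10.3 FPKM in PELI2 knockout and 9.93, 9.89 and 9.70 FPKM in WT libraries. The copy stood higher, at 38.2, 43.8 and 49.8 FPKM in PELI2 knockout and 39.3, 45.7 and 54.2 FPKM in WT libraries. Values of Atp5g1, Uqcrb, Atp5h, Atp5l, Uqcr11, Cox7c and Cox5b carry this uncertainty of assignment. Of the 6 pseudogene rows with a subunit's symbol, only Atp5k-ps2 and Atp5l2-ps were tested, and both had a lower mean in PELI2 knockout libraries. Atp5k-ps2 averaged 1.63 ± 0.778 FPKM in PELI2 knockout and 2.31 ± 1.15 FPKM in WT libraries, from 4 to 13 reads per library.

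Genes that build or feed the complexes were split between the directions, and limma called 0 of them, with 0.0232% of all tested genes called. Of 16 tested complex I assembly factors, 7 had a higher mean in PELI2 knockout libraries, with a median log2 fold change of -0.015. An unadjusted p under 0.05 was reached by Ndufaf8, with a higher mean in PELI2 knockout, and by Dmac2 and Ndufaf5, with a lower one. Among complex II assembly factors 2 of 3 tested genes were higher and Sdhaf2 was lower at that threshold, and among complex III assembly factors 3 of 5 were higher. Of 22 complex IV assembly factors 9 were higher, with Cmc1 and Cox14 higher and Cox20 lower at that threshold. Of 5 ATP synthase assembly and inhibitor genes 3 were higher, with Atpif1, described above, higher and Atpaf2 lower at that threshold. Among 19 genes of the electron carriers and ubiquinone synthesis 11 were higher, with Etfb and Coq9 higher and Coq7 lower. Cycs, cytochrome c, had 16, 17.0 and 17.0 FPKM in PELI2 knockout and 15.0, 14.6 and 16.3 FPKM in WT libraries. Of 16 tricarboxylic acid cycle genes 8 were higher, and Idh3a was higher and Sucla2 lower at that threshold.

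Of 15 tested genes that copy, transcribe or translate the mitochondrial genome or stabilise its transcripts, 5 were higher in mean, with Polrmt, its RNA polymerase, and Polg, its DNA polymerase, lower at an unadjusted p under 0.05. Among 7 nuclear regulators of respiration genes 1 had a higher mean, and Yy1 and Gabpb1 were lower at that threshold. Yy1 had 31.6, 31.7 and 31.0 FPKM in PELI2 knockout and 34.3, 36.3 and 33.5 FPKM in WT libraries. The groups did not overlap, and its log2 fold change was -0.14 ± 0.047 (SE). The shares of all tested genes at that threshold were 9.2% higher and 8.88% lower.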

How the data were processed

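RNA from bone marrow B220+ cells was purified with oligo(dT) beads and read as single-end 50-base reads on DNBSEQ, per the labels' protocols. The authors deposited 1 table of FPKM per gene and library; the submitters' processing notes list RSEM 1.2.12, Bowtie2 2.2.5, DESeq2 1.4.5 and HISAT2 2.0.4 with build GRCm38.p6, with no role for each, and how reads that match several genes were assigned is not given in the sources used here. Members and gene lists were chosen with earlier results of these data known. Genes with at least 1 FPKM in at least 3 libraries (12953) were tested with limma 3.58.1 in R 4.3.3 (trend) on log2(FPKM + 1), with Benjamini-Hochberg adjustment over all of them; the pseudocount understates changes of low genes. Depth came from low FPKM values of single-transcript genes, 99.2 to 99.5% of which fell within 0.03 of whole reads. Shared sequence was counted in 50-base windows of GENCODE M21 transcripts. The fit and the depth search were tested on simulated data. Named were the highest, the lowest tested and up to 5 members with the smallest p in each direction per complex, alternative subunit genes, mitochondrial genes, and up to 3 genes per list and direction; other members named by role were chosen after values were seen. Values of 1 member are not reported here. Other pseudocounts, filters, scalings, a replicate block and leaving out libraries were tried.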

Additional observations from a re-analysis of the deposited data

How the results depend on the processing

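No subunit gene passed a limma adjusted p under 0.05 under any of the 17 other settings. With a common FPKM total, 41 of 89 subunit genes had a higher mean in PELI2 knockout, against 74 in the main setting. The 12 genes followed here are the 9 at an unadjusted p under 0.05, with Ndufa12, Ndufc2 and Uqcr11. They were picked from these same data, which favours a stable sign. Filters, the eBayes trend and a replicate block leave a fold change as it was. The 204 values of these 12 genes changed sign 0 times. Some moved by over 1.5 times: with a common FPKM total, the log2 fold change was 0.11 for Atp5f1, 0.13 for Ndufv3, 0.072 for Atp5h, 0.083 for Atp5o and 0.14 for Ndufa5. It was 0.13 for Ndufa5 and 0.18 for Uqcr11 without WT replicate 2, and -0.28 for Ndufa12 without WT replicate 1. Without PELI2 knockout replicate 3 and WT replicate 2 it was 0.14 for Ndufb4, 0.15 for Uqcrb, 0.090 for Atp5h, 0.099 for Ndufa5, 0.17 for Ndufc2 and 0.15 for Uqcr11. Over all genes the count was 3, against 1 with a filter of 5 FPKM, 6 without the eBayes trend, 2 to 16 when leaving out 1 library (16 without PELI2 knockout replicate 3) and 18 without PELI2 knockout replicate 3 and WT replicate 2. Subunit genes at an unadjusted p under 0.05 numbered 9, against 4 with a common FPKM total (3 higher, 1 lower), 5 with a common total without mitochondrial and immunoglobulin rows, and 4 without PELI2 knockout replicate 3 and WT replicate 2 (2 higher, 2 lower). Leaving out 1 library gave 3 to 18: 5 without PELI2 knockout replicate 1, 5 without PELI2 knockout replicate 3, 3 without WT replicate 2 and 18 without WT replicate 3. With a common total the median log2 fold change was -0.0079 for all subunit genes, -0.022, -0.026, 0.012, -0.0045 and -0.00053 for complexes I to V, and -0.076 for all tested genes; without mitochondrial and immunoglobulin rows in that total it was 0.00075 for complex II and 0.039 for complex III. Without PELI2 knockout replicate 3 and WT replicate 2, a setting added after seeing the data, it was -0.019 for complex I, 0.0014 for complex II and -0.016 for all tested genes. Leaving out 1 library gave medians of 0.032 to 0.096 for all subunit genes, 0.027 to 0.103, 0.018 to 0.069, 0.046 to 0.110, 0.016 to 0.097 and 0.058 to 0.109 for complexes I to V. Libraries with the same replicate number in both groups had correlations of 0.101, 0.036 and 0.090 of their deviations. All of these were above the correlations between different numbers, -0.107 to 4.5e-05. Not every one exceeded 0.1, and the main fit did not use the numbers as pairs. Whether they mark pairs was not tested. The deviations were taken from group means and cancel within a group, so higher correlations for the same numbers bring lower ones for different numbers. A replicate block gave 16 subunit genes at an unadjusted p under 0.05, 15 higher and 1 lower, against 19.3% of all tested genes. The cause of these shifts was not tested. With 3 libraries per group and 50-base reads, differences of the size seen in these genes lay near the spread between libraries, and genes with close copies were limited by shared sequence.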
